A study of Mus musculus with 8 samples.

Results

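The 10 heat shock chaperone genes Hspa1a, Hspa1b, Hspa8, Hspa5, Hsph1, Dnajb1, Hsp90aa1, Hsp90ab1, Hspb1 and Hspd1 were followed across the cell types of the mouse hippocampus. They were taken by symbol from the 30211 genes counted in single-nucleus RNA sequencing of 8 mice, and all 10 were found. The WT and GKO groups held 3 mice each at 7 mo of age. In GKO mice exons 9 to 11 of Gsap, which encodes γ-secretase activating protein, were flanked by loxP sites and deleted in all tissues with a CMV-Cre line. The J20;WT and J20;GKO groups held 1 mouse each at 6 mo, and both carried the J20 transgene, human APP with the Swedish and Indiana mutations under the PDGFB promoter. All mice were on a C57BL/6N background, given as C57BL/6 in the labels. J20 mice differed from the others in transgene and age at once, and each group of 1 allows no test.

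Heat shock proteins hold unfolded proteins until they can fold. HSP70 proteins such as Hspa8 and Hspa1a bind short stretches of unfolded chain, J-proteins such as Dnajb1 deliver those chains to HSP70, and HSP110 proteins such as Hsph1 release them again by exchanging the nucleotide of HSP70. HSP90 acts later and on selected clients, among them kinases and steroid receptors. Under heat or proteotoxic stress the transcription factor HSF1 raises the inducible members, whereas unfolded protein in the endoplasmic reticulum (ER) raises Hspa5 through the unfolded protein response. In the brain neurons are known for a weak inducible response, and glia for a stronger one.

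Control sequences upstream of these genes are known to carry binding sites for those regulators, and they are shown because the members fall under different control. RefSeq windows on GRCm38.p6 were found for 7 of the 10 members, the exceptions being Hspa8, Hsp90aa1 and Hsp90ab1. Capitals mark matches to an inverted pair of heat shock units, written GAANNTTC or TTCNNGAA, or to the ER stress element, CCAAT and CCACG with 9 bases between them, each searched on both strands in 250 bases before an annotated start. A pair was present in 12.8% of all 32851 windows and in those of 5 of the 7 members. A run of 3 units, in which GAA and TTC alternate with 2 bases between them and which contains pairs, was present in 0.466% of windows and, among members, in a window of Hspd1. The ER stress element, which contains a CCAAT box, was present in 0.113% of windows and, among members, in that of Hspa5. These are letter matches and were not tested as binding sites.
Hspa1a, 250 bases upstream of the start, chr17:34972157-34972406, minus strand: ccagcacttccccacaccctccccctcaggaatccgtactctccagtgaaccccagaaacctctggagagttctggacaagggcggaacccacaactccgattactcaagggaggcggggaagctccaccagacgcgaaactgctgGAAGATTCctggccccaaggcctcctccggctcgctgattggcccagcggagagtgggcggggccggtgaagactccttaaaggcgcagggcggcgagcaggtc
Hspb1, between genes, chr5:135887801-135887830, plus strand: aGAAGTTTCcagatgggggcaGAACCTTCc
Hsph1, non-coding part of an exon, chr5:149636351-149636380, minus strand: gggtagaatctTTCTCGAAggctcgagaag
Hspd1, non-coding part of an exon, chr1:55088053-55088082, minus strand: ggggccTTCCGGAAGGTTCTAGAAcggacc
Hspa5, non-coding part of an exon, chr2:34772020-34772049, plus strand: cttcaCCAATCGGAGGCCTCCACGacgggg

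Hspa1a (chr17:34969190-34972156) and Hspa1b (chr17:34956436-34959238) encode near-identical inducible HSP70 proteins and lie 9951 bases apart on the minus strand. Their upstream windows were identical at 247 of 250 bases (98.8%). Counted from 1 at the 5′ end of the window, Hspa1b differed from Hspa1a by C44T, T47C and T249G. Of 60-base words 57.8% of the Hspa1a transcript recurred in another gene. In the last 500 bases, toward which 3′ chemistry directs reads, 0% did. For Hspa8 81.4% of the words in that stretch recurred in 9 other genes, and its counts are therefore uncertain to the extent that reads were split among copies. Hspa1a overlaps Gm20481 and Hspd1 overlaps Hspe1, both on the opposite strand.

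In all, 32041 nuclei passed the filters, and 86.0% of them were assigned to 1 of 10 cell types by marker genes. Libraries held 21020159 to 43310978 UMIs, the molecules counted, with a median of 4579 to 6438.5 per nucleus. The 28 pairs of libraries shared 2 to 21 cell barcodes each. The names of the deposited files gave August for WT 1 and GKO 1, January for J20;WT and November for the other 5 libraries, so date and genotype were not confounded between WT and GKO, whereas the J20;WT date was that library alone. Gsap did not differ between GKO and WT in the counts, at 3.94, 5.03 and 4.64 CPM (UMIs of the gene scaled to a common total per library and cell type) in excitatory neurons of GKO mice against 4.24, 4.08 and 4.40 CPM in WT. Where the Gsap reads lie within the gene was not examined, so these counts neither show nor exclude the deletion. The paper reports excision of the targeted exons and a lower GSAP mRNA level by PCR. These counts did not show that lower level, and the reason was not tested. Markers of excitatory neurons summed to 292 to 406 CPM in nuclei gated as oligodendrocytes and to 2121 to 2336 CPM in excitatory neurons of WT and GKO mice, so each gate held some RNA of other cells.

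Among the 8 types large enough to be tested, oligodendrocytes, the myelin-forming cells, held the highest levels of both cytosolic HSP90 genes in CPM. CPM is a share of the UMIs of a type, and nuclei differed in depth. The median was 2217 UMIs per nucleus in oligodendrocytes and 10612 in excitatory neurons. Molecules per nucleus were not compared between types. Hsp90aa1 (chr12:110690605-110702728), the inducible form, measured 191, 304.4 and 189.8 CPM in oligodendrocytes of the 3 WT mice, 197, 225 and 273 CPM in the 3 GKO mice, 84.5 CPM in J20;WT and 149 CPM in J20;GKO. In excitatory neurons of the same mice it measured 45.6, 56.0, 50.3, 41.7, 46.7, 56.1, 33.0 and 52.8 CPM. Every oligodendrocyte value lay above every excitatory value. The mean was 202 ± 68.7 CPM against 47.8 ± 7.8 (SD, n = 8), and the log2 difference was 2.03 ± 0.09 (SE; edgeR quasi-likelihood test, adjusted p = 5.3e-33). Against the next cell type in order, Cajal-Retzius cells at 99.3 ± 50.1 CPM, the Hsp90aa1 level of oligodendrocytes was 1.29 ± 0.17 log2 units higher (edgeR adjusted p = 2.1e-09).

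Hsp90ab1 (chr17:45567775-45573271), the constitutive HSP90, measured 384 ± 108 CPM in oligodendrocytes and 147 ± 18.1 CPM in excitatory neurons, a log2 difference of 1.35 ± 0.09 (edgeR adjusted p = 6.0e-22). Its level in oligodendrocytes was also higher than in the next type, Cajal-Retzius cells at 361 ± 78.8 CPM by TMM scaling (0.48 ± 0.13 log2 units; edgeR adjusted p = 0.0017), but in 5 of 8 libraries. By library size the difference was 0.12 and did not pass, and the exact sign-flip permutation test gave p = 0.711. The remaining neighbours in the order of Hsp90ab1, from Cajal-Retzius cells through mural cells, microglia, oligodendrocyte progenitor cells (OPCs), inhibitory neurons and astrocytes to excitatory neurons, did not differ by the rule used (adjusted p under 0.05 and a log2 difference over 0.3).

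**Figure D1:**
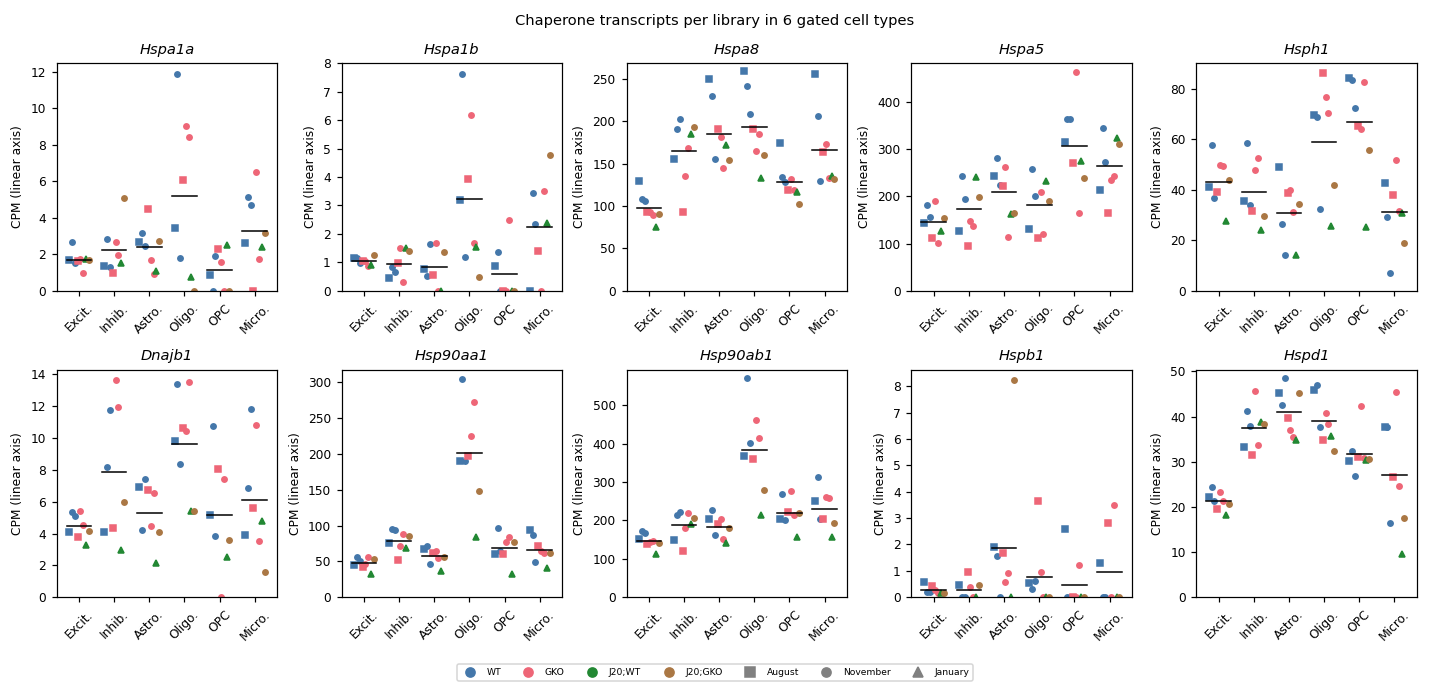
Level of each of the 10 chaperone genes in CPM (linear axes from 0) in 6 gated cell types, with 1 point per library, color by genotype, shape by file date and a bar at the mean of 8 libraries. Both HSP90 genes peak in oligodendrocytes (means of 202 and 384 CPM), Hspa5 is highest in OPCs (307 CPM), and Hspa1a, Hspa1b and Hspb1 lie mostly under 10 CPM.

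Of the 7 members with enough counts, 6 were higher in oligodendrocytes than in excitatory neurons and 0 lower, where 71.0% of all 13292 genes tested passed, 35.1% of them as higher in oligodendrocytes. Dnajb1, the J-protein partner of HSP70, was 1.11 ± 0.17 log2 units higher, Hspa8 0.97 ± 0.11, Hspd1, the mitochondrial chaperonin, 0.86 ± 0.09 and Hsph1 0.42 ± 0.11. Hspa5 measured 182 ± 54.4 CPM against 146 ± 31.5 and did not pass (0.28 ± 0.13). Against excitatory neurons, 4 of the 7 were higher in inhibitory neurons (background 45.9%, 23.0% as higher), 5 in OPCs (59.1%, 28.6%), 3 in astrocytes (69.6%, 35.3%) and 3 in microglia (72.5%, 34.3%). In these comparisons 1 member was lower in astrocytes and 1 in microglia, in both Hsph1. A scaling by library size alone moved the median of all genes in microglia from -0.05 to 0.22. On that scale 5 members were higher in microglia, with Hsp90aa1 (0.50) and Hspd1 (0.36) added, 5 in inhibitory neurons, 6 in OPCs, 4 in astrocytes and 6 in oligodendrocytes, and Hsph1 was lower in the same glia as before.

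Hspa8 (chr9:40800984-40810087) encodes the constitutive HSP70 that also strips clathrin from vesicles. As a share of UMIs its level was lowest in excitatory neurons, at 98.0 ± 16.3 CPM. That share was higher in all 8 libraries in astrocytes (185 ± 37.5), oligodendrocytes (193 ± 42.4), inhibitory neurons (165 ± 36.7), microglia (166 ± 45) and OPCs (128 ± 21.2). Median UMIs per nucleus were 10612 in excitatory neurons, 3770 in astrocytes and 1955 in microglia, so this order need not hold for molecules per nucleus. The difference passed in 4 of these 5 types, and in OPCs it was 0.24 ± 0.12 log2 units and did not. Among the 6 main types Hspd1 (chr1:55077835-55088243) had its higher levels in astrocytes (41.1 ± 5.1 CPM), oligodendrocytes (39.1 ± 5.2) and inhibitory neurons (37.6 ± 4.7), which did not differ as neighbours, and 21.4 ± 1.9 CPM in excitatory neurons.

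Hspa5 (chr2:34771970-34777547), the HSP70 of the ER also called BiP, followed another order. Among the 6 main types its level was 307 ± 91.2 CPM in OPCs, 264 ± 60.7 in microglia, 209 ± 57.0 in astrocytes, 182 ± 54.4 in oligodendrocytes, 173 ± 54.5 in inhibitory neurons and 146 ± 31.5 in excitatory neurons. In OPCs it measured 316, 364 and 363 CPM in WT, 269.7, 464 and 166 in GKO, 275 for J20;WT and 239 for J20;GKO. The OPC level was 0.92 ± 0.13 log2 units above that of excitatory neurons and 0.34 ± 0.14 above that of microglia (edgeR adjusted p = 1.1e-08 and 0.035). The step from microglia to OPCs was seen in 5 of 8 libraries, fell to 0.21 by library size, where it did not pass, and had p = 0.344 in the exact sign-flip permutation test. Mural cells or fibroblasts, a small gate, had a mean of 338 ± 119 CPM and did not differ from OPCs. Astrocytes, oligodendrocytes, inhibitory neurons and excitatory neurons, as neighbours in that order, did not pass. Compared directly with excitatory neurons, astrocytes (0.49 ± 0.13; edgeR adjusted p = 5.1e-04) and microglia (0.59 ± 0.14; edgeR adjusted p = 1.1e-04) were higher. Oligodendrocytes (0.28 ± 0.13) and inhibitory neurons (0.13 ± 0.13) did not pass in that comparison.

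Hsph1 (chr5:149614287-149636376) was the member for which excitatory neurons stood above some other types. It measured 43.2 ± 9.3 CPM in excitatory neurons, 30.9 ± 12.4 in astrocytes and 31.3 ± 13.9 in microglia, differences of -0.54 ± 0.13 and -0.76 ± 0.17 log2 units for the glia (edgeR adjusted p = 2.3e-04 and 6.6e-05). Microglia held a mean of 18.4 Hsph1 UMIs per library and stood above excitatory neurons in 3 of 8 libraries. OPCs (66.8 ± 19.8 CPM) and oligodendrocytes (59.0 ± 22.5) had higher Hsph1 than excitatory neurons and did not differ from each other. The OPC level was higher in 7 of 8 libraries. That of oligodendrocytes was higher in 5 of 8, with p = 0.078 in the exact sign-flip permutation test. Among excitatory neurons the dentate granule gate held 35.7 ± 4.5 CPM of Hsph1 and the CA1 pyramidal gate 46.9 ± 11.5 CPM. That difference of -0.40 ± 0.08 log2 units passed (edgeR adjusted p = 1.7e-04). It was the 1 call among 7 members between the dentate granule, CA1 and CA3 gates, where 44.5% of 13920 genes passed between dentate granule and CA1. With a stricter gate 7 such calls were made, and 2 with scaling by library size or with the WT and GKO libraries alone.

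Across the 8 types large enough to be tested, 6 of 49 steps between neighbours in a member's order passed. Between 24.3% and 72.5% of genes passed in the 28 pairs of types. Neighbours were set by sorting each member on its own means, so their steps are small by construction. The 2 shares are therefore not comparable. With the 6 WT and GKO libraries alone 10 steps passed. Of the 6, 3 also passed by library size (Hsp90aa1 from oligodendrocytes to Cajal-Retzius cells, Hsph1 from oligodendrocytes to excitatory neurons and Hspa8 from inhibitory neurons to OPCs), and 2 had an exact sign-flip permutation p under 0.05 (that of Hsp90aa1, and Hspa8 from astrocytes to microglia). Cells of 1 mouse share a library, and the tests were made over libraries. Fold changes compare transcript shares of nuclear RNA and not protein.

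Hspa1a, Hspa1b and Hspb1 were sparse. Over all 8 libraries pooled, Hspb1 (chr5:135887919-135889563), a small HSP that caps unfolded protein without using ATP, reached 257 CPM in nuclei gated as endothelial cells (exact 95% Poisson interval 177 to 361; 33 UMIs in 59 nuclei) and 38.2 CPM in mural cells or fibroblasts (24.2 to 57.4; 23 UMIs in 255 nuclei). In excitatory neurons it was at 0.282 CPM. Of its 215 UMIs, 26.0% lay in the vascular gates, which held 0.980% of nuclei. After thinning to 1000 UMIs a nucleus, Hspb1 had a UMI in 15.9% of endothelial nuclei (mean over libraries, 25.1% unthinned) and in 0.0333% of excitatory nuclei (0.333% unthinned). Intervals cover counting error only.

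Hspa1a was at 5.72 CPM in oligodendrocytes pooled over libraries and at 1.68 CPM in excitatory neurons. Its pooled level was higher in 2 small gates, at 13.3 CPM in mural cells or fibroblasts (8 UMIs) and 23.4 CPM in endothelial cells (3 UMIs). By library it measured 3.44, 11.9 and 1.80 CPM in oligodendrocytes of WT mice, 6.06, 9.02 and 8.46 CPM in GKO, 0.775 CPM in J20;WT and 0 CPM in J20;GKO, where a count of 0 allows up to 1.81 CPM at the upper end of its exact 95% interval. Hspa1b measured 3.18, 7.63 and 1.2 CPM in WT, 3.94, 6.17 and 1.69 CPM in GKO, 1.55 CPM in J20;WT and 0.492 CPM in J20;GKO. WT 2 and GKO 2 held the highest values of both genes. The J20 libraries held the lowest values of Hspa1a, whereas for Hspa1b J20;WT lay above WT 3. These J20 values rest on 1 and 0 UMIs of Hspa1a and on 2 and 1 UMIs of Hspa1b, in J20;WT and J20;GKO. In excitatory neurons Hspa1a kept to 0.951 to 2.70 CPM and Hspa1b to 0.872 to 1.27 CPM. These 2 genes and Hspb1 had too few counts for the test between types.

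**Figure D2:**
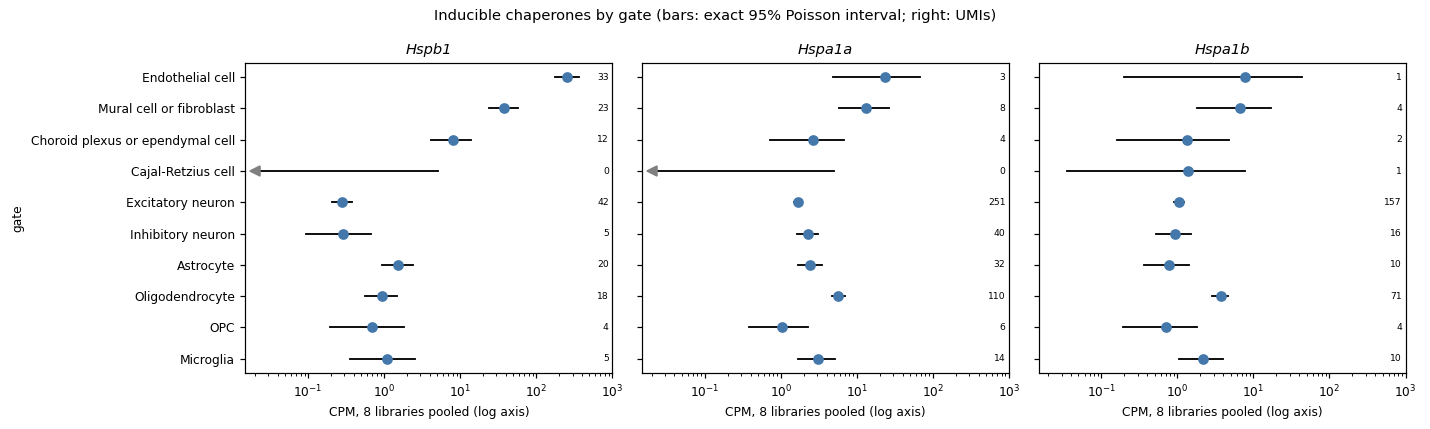
Pooled level of Hspb1, Hspa1a and Hspa1b in CPM (log axis) in 10 gates, with exact 95% Poisson intervals as bars, the number of UMIs at the right edge and an arrowhead at the left edge for gates without a UMI. Hspb1 stands at 257 CPM in the endothelial gate and 38.2 CPM in the mural gate, far above 0.282 CPM in excitatory neurons.

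The comparison of GKO with WT asks whether loss of Gsap changed chaperone transcripts. No member passed in any of 8 cell types, 0 of 51 member tests, where 0.0% of all 75072 tests passed. At an unadjusted p under 0.05, 4 member tests and 1357 of all tests (1.81%) lay below. With the replicate numbers as a block 13 member tests and 4.72% of all tests did, and with the file date as a term 9 and 4.50%. The count for all genes was 23 with the replicate numbers as a block, 21 with the file date as a term, 3 with DESeq2 and 34 without the filter on low counts, and no member was among them in any of these fits. The p-values measure the spread between these mice.

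Hspa8 had the lower mean in GKO in 6 of 6 main cell types, and in each of them on both file dates. In excitatory neurons it measured 129, 108 and 106 CPM in WT and 92.7, 92.4 and 89.6 CPM in GKO. The groups did not overlap, with WT 1 the highest, and GKO libraries lay within a narrow band. The means were 115 ± 12.9 against 91.6 ± 1.7 CPM (SD, n = 3 each), a log2 fold change of -0.31 ± 0.11 (edgeR, unadjusted p = 0.023, adjusted p = 1.00). In oligodendrocytes it measured 260, 242 and 208 CPM in WT and 191, 165 and 185 CPM in GKO, again without overlap (-0.38 ± 0.14; edgeR, unadjusted p = 0.025, adjusted p = 1.00). In inhibitory neurons the values of 155, 191 and 203 CPM in WT and 93.1, 135 and 168 CPM in GKO overlapped (-0.43 ± 0.19). With the file date as a term the Hspa8 difference kept its size in excitatory neurons (-0.30 ± 0.07; edgeR adjusted p = 1.00). The cell types come from the same 6 mice and are not separate evidence. The share of all genes that were lower in every type and on both dates was not set beside this direction count. The shared direction alone therefore does not set Hspa8 apart from other genes.

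**Figure D3:**
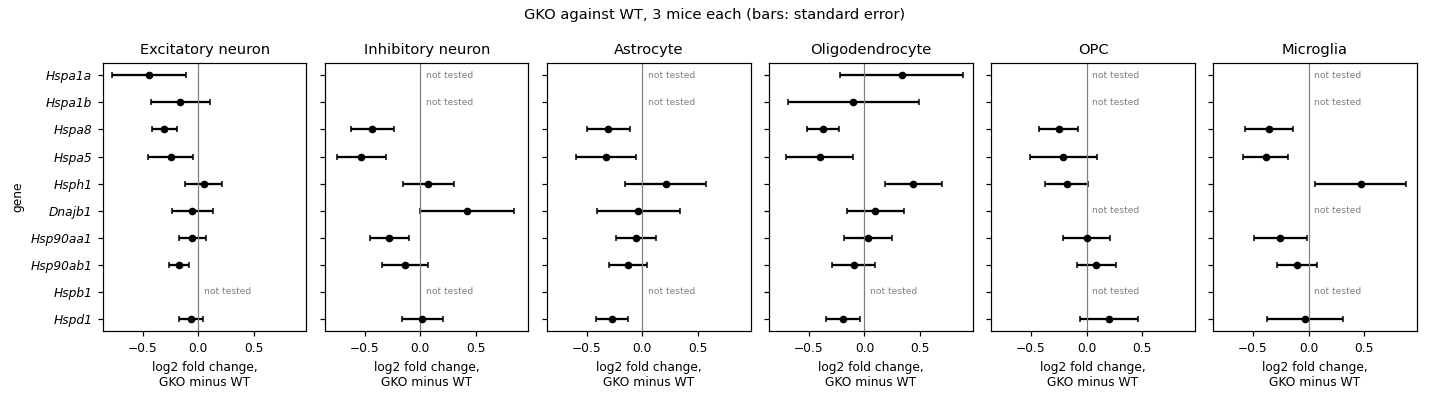
Log2 fold change of GKO over WT for each chaperone gene (points; bars show the standard error, n = 3 mice each) in 6 cell types, with genes below the count filter named as not tested. Hspa8 and Hspa5 lie below 0 in all 6 panels, and no gene passed the threshold.

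Hspa5 likewise had the lower mean in GKO in 6 of 6 types and on both dates within each, yet its groups overlapped in all of them. Here too no share over all genes was set beside the direction count. In inhibitory neurons it measured 127, 243 and 194 CPM in WT and 95, 148 and 137 CPM in GKO (-0.53 ± 0.22; edgeR, unadjusted p = 0.032, adjusted p = 1.00). Hsp90ab1 in excitatory neurons did not overlap, at 153, 172 and 167 CPM in WT and 139, 144 and 147 CPM in GKO. Among members at 10 CPM or more, 2 of 6 were lower in GKO without overlap in excitatory neurons, where 2.31% of 9621 genes were. In oligodendrocytes Hspa8 was the 1 of 7 lower without overlap (background 3.32%), and Hsph1, at 69.9, 68.9 and 32.3 CPM in WT and 86.3, 77.0 and 70.5 in GKO, the 1 of 7 higher (2.63%). In astrocytes 1 of 6 was lower, Hspd1 (3.37%). In inhibitory neurons, OPCs and microglia the groups overlapped for every member. Over the members tested the median log2 fold change lay between -0.18 and -0.09 in the 6 main types, beside 0.00 over all genes in each.

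None of the related genes passed between GKO and WT either, in any of the lists of HSF1 targets and co-chaperones, ER chaperones, mitochondrial chaperones, subunits of the cytosolic chaperonin CCT, immediate early genes, glucocorticoid-responsive genes and clock genes.

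The date in the file names was then compared. Between the 4 November and the 2 August libraries of WT and GKO mice, with genotype as a term, 4 of 51 member tests passed (7.84%), near the 8.46% of all 78976 tests. In excitatory neurons 0 of 9 members passed (background 9.05%, 5.40% higher and 3.65% lower), in astrocytes 0 of 7 (10.8%, 4.55% and 6.26%), in oligodendrocytes 0 of 9 (12.3%, 6.24% and 6.01%) and in OPCs 0 of 6 (6.15%, 2.34% and 3.81%). Of 3 tested in mural cells 0 passed (0.227%, all lower) and of 4 in Cajal-Retzius cells 0 (0.0404%). The calls lay in inhibitory neurons and microglia, and all were higher in November. With the library WT 1 left out 0 calls were made, and 1 each without GKO 1 or GKO 3. Without WT 3 the count stayed at 4, but the inhibitory calls described next were lost and others were made. Without GKO 2 those of Hspa5 and Dnajb1 in inhibitory neurons were lost, and without WT 2 that of Hspa5 in microglia.

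In inhibitory neurons 3 of 7 members were higher in November, where 8.24% of 12713 genes passed, 3.91% as higher and 4.33% as lower. Hspa5 measured 127 and 95 CPM in August (WT 1 and GKO 1) and 243, 194, 148 and 137 CPM in November, without overlap (0.56 ± 0.13; edgeR adjusted p = 0.023). Hsp90ab1 measured 149 and 120.2 CPM in August and 214, 222, 179 and 219.7 CPM in November (0.51 ± 0.12; edgeR adjusted p = 0.023). Dnajb1 (chr8:83608193-83612653) measured 4.11 and 4.36 CPM in August and 8.17, 11.8, 13.6 and 12 CPM in November (1.27 ± 0.34; edgeR adjusted p = 0.040). Inhibitory neurons held few Dnajb1 UMIs, a mean of 18.25 per library over all libraries, with a counting error of 29.8%. All November values lay above both August values for the 3 genes. In microglia 1 of 6 members passed (background 5.45%, 2.62% as higher and 2.83% as lower): Hspa5, at 214 and 166 CPM in August and 345, 274, 234 and 244 CPM in November (0.55 ± 0.14; edgeR adjusted p = 0.016).

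**Figure D4:**
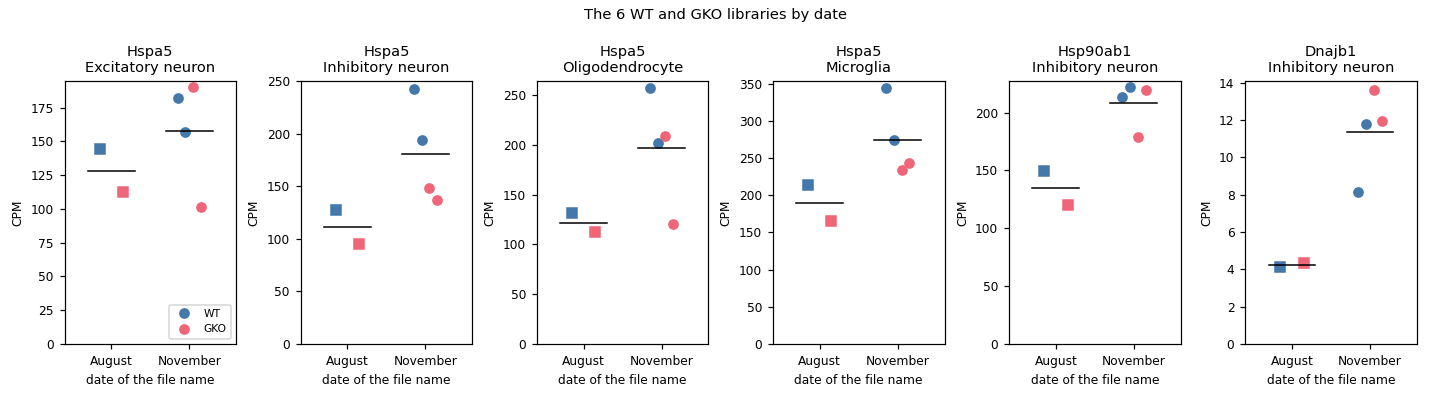
Level in CPM (linear axes from 0) of Hspa5 in 4 cell types and of Hsp90ab1 and Dnajb1 in inhibitory neurons, for the 2 August and the 4 November libraries of WT (blue) and GKO (red) mice, with a bar at each mean. August and November do not overlap in inhibitory neurons or microglia, whereas for Hspa5 in excitatory neurons and oligodendrocytes GKO 3 lies at or below an August value.

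Other measures of these libraries moved with the date too. In inhibitory neurons the 7 markers of choroid plexus or ependymal cells summed to 302 to 400 CPM in August and 46.2 to 94.4 CPM in November. All 7 had UMIs in both August libraries, and Folr1 was at 0 in a November library. In microglia the same markers summed to 1080 to 1112 CPM in August and 28.2 to 158 CPM in November, where 6 of 7 were at 0 in some library. Median UMIs per inhibitory neuron were 12732.5 to 14495 in August and 10426 to 13079.5 in November, and the mitochondrial share of UMIs was 0.279 to 0.302% and 0.334 to 0.487%. Their part in the result was not tested.

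In oligodendrocytes Hspa5 measured 131 and 112 CPM in August and 257, 202, 209 and 121 CPM in November. GKO 3 lay between the August values, and the difference did not pass (0.69 ± 0.21; edgeR adjusted p = 0.078). The date difference of Hspa5 was nevertheless larger in oligodendrocytes than in excitatory neurons, where it was 0.24 ± 0.25, by a direct test of 1 difference against the other (0.48 ± 0.12; edgeR adjusted p = 0.012). It was the 1 of 9 members to pass that test, where 4.52% of 17005 genes passed and 2.92% with a larger change in oligodendrocytes. It did not pass without WT 2, without GKO 1 or with a stricter gate.

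Some other ER chaperone genes also moved with the date. This list and those below were chosen with earlier results of these data known, so their counts are a description. Refits with libraries left out are not given for the lists. Of 20 on the list, 9 were higher in November and 0 lower in oligodendrocytes (median 0.46, beside 0.00 over all genes; background 12.3%, 6.24% as higher). Sdf2l1, a partner of Hspa5 in the ER, rose by 1.10 ± 0.18 log2 units there, Calr, the lectin chaperone calreticulin, by 1.10 ± 0.10, and Creld2, an ER stress-induced disulfide isomerase, by 0.99 ± 0.29. In microglia 6 of 18 ER chaperone genes were higher (median 0.43), among them Calr (1.39 ± 0.15) and Dnajb11 (1.05 ± 0.22), the J-protein that serves Hspa5. In excitatory neurons 4 of 20 were higher (median 0.16, background 9.05%, 5.40% as higher) and in inhibitory neurons 4 of 20 (median 0.34). The shares of all genes in microglia and inhibitory neurons are given above with the members.

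Of the HSF1 targets and co-chaperones, 5 were higher and 1 lower of 27 tested in excitatory neurons (median 0.11) and 5 higher and 0 lower of 24 in inhibitory neurons (median 0.12), beside 9.05% and 8.24% of all genes. Fkbp4, the HSP90-binding immunophilin FKBP52, rose by 0.60 ± 0.11 log2 units in excitatory and 0.89 ± 0.14 in inhibitory neurons, and Ahsa1, which stimulates the ATPase of HSP90, rose by 0.68 ± 0.13 in excitatory neurons. Hspa2, a further HSP70, fell by 0.70 in excitatory neurons. Hspe1, the partner of Hspd1 in the mitochondrial chaperonin, rose by 1.01 ± 0.18 in inhibitory neurons, whereas Hspd1 did not pass in any type. No CCT subunit passed in the neurons, oligodendrocytes or microglia.

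Immediate early genes, which follow neuronal activity, were higher in November in excitatory neurons for 4 of 16 (median 0.52; Fos by 0.86 ± 0.22, Btg2 by 0.69 ± 0.11) and in inhibitory neurons for 4 of 12 (median 0.89). Glucocorticoid-responsive genes were lower in November in oligodendrocytes for 6 of 10 (median -1.14; Cdkn1a at -3.95 ± 0.35) and in excitatory neurons for 4 of 10 (median -0.47). Beside these list counts, 8.46% of all tests passed by date, and the shares of all genes in each type are given above. The HSP90 genes, which hold the glucocorticoid receptor in its hormone-binding form, did not pass by date in oligodendrocytes (Hsp90aa1 0.35 ± 0.18 and Hsp90ab1 0.34 ± 0.13).

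Over all nuclei together 1 of 10 members passed by date, Hspb1 (background 12.2%, 5.32% as lower). It was at 1.71 and 1.66 CPM in August and at 0.443, 0.410, 0.781 and 0.532 CPM in November, a log2 fold change of -1.66 ± 0.27 (edgeR adjusted p = 0.0084). The 2 August libraries stood apart from all others. They held 74 and 52 Hspb1 UMIs and the November libraries 9 to 27. The vascular share of nuclei was 0.971% and 1.43% in August and 0.782 to 1.17% in November, and outside the vascular gates the August libraries held 54 and 39 of the UMIs. Nuclei of the choroid plexus or ependymal gate, 68 and 45 in August against 0 to 18 in November, held 4 and 6 of them. In excitatory neurons alone Hspb1 was at 0.582 and 0.425 CPM in August and 0.159 to 0.265 CPM in November. In a sum over all nuclei, fewer cells of a type and less RNA per cell cannot be told apart. Without WT 1 or without GKO 1 this call was lost, as it was with DESeq2.

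Among libraries J20;WT held the lowest level in 22 of 42 combinations of 7 members with 6 cell types and the highest in 0. WT 2 held the highest in 17. The share of all genes for which a library was the extreme was not set beside these counts. They describe the libraries and do not set the members apart from other genes. For Hsp90aa1 and Hsp90ab1 J20;WT was the lowest in 5 of 6 types each. Hspa5 followed another order, with its lowest values in GKO 1 or GKO 3 in all 6 types. Spread over the 8 libraries in excitatory neurons ran from a coefficient of variation of 9.10% for Hspd1 to 21.6% for Hspa5 among members over 10 CPM, around the median of 11.4% over 9682 genes. Counting error made up 2.01% for Hspa5.

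The J20 pair asks whether loss of Gsap changed the members in mice with the transgene, with 1 mouse each and different file dates, so the libraries and not the genotypes are compared. In excitatory neurons 8 of 10 members were higher in J20;GKO, where 46.7% of 9829 genes at 10 CPM or more were higher. The 10 members include some below that level. Of the 6 at 10 CPM or more, 5 had exact 95% Poisson intervals apart, all higher in J20;GKO, where the intervals of 39.7% of all genes were apart (17.9% higher and 21.8% lower). Hsp90aa1 was at 33.0 CPM (29.9 to 36.2) in J20;WT and 52.8 CPM (49.1 to 56.7) in J20;GKO, a ratio of 1.6. Hsph1 was at 27.6 CPM (24.9 to 30.6) and 43.9 CPM (40.5 to 47.5). Hspa8 was at 75.0 CPM (70.4 to 79.8) and 90.3 CPM (85.4 to 95.4). For these 3 genes J20;WT lay below all 6 WT and GKO mice, and J20;GKO lay within their range. In oligodendrocytes 4 of 10 members were higher in J20;GKO, where 38.9% of 9566 genes at 10 CPM or more were. Hspb1, without a UMI there in either library, is counted as not higher. The intervals of 2 of 6 were apart, those of Hsp90aa1 (84.5 and 149 CPM) and Hsp90ab1 (215 and 279 CPM), beside 14.2% of all genes (4.60% higher and 9.59% lower). Date, library and genotype cannot be told apart in this pair.

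**Figure D5:**
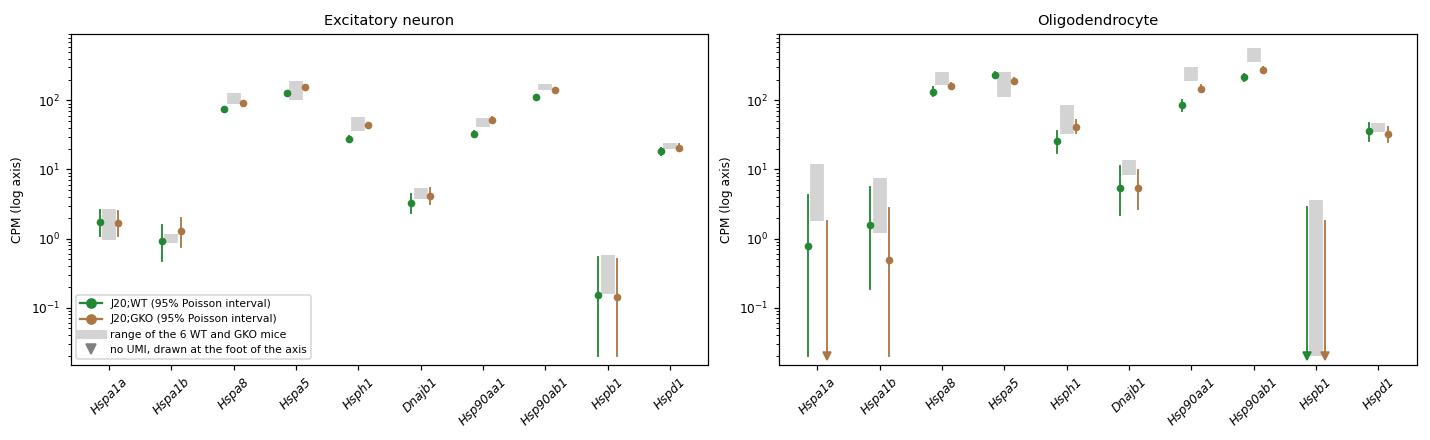
Level of the 10 chaperone genes in CPM (log axis) in the J20;WT (green) and J20;GKO (brown) libraries with exact 95% Poisson intervals, beside the range of the 6 WT and GKO mice (grey bars), in excitatory neurons and oligodendrocytes. In excitatory neurons J20;WT lies below the grey bar for Hspa8, Hsph1, Dnajb1, Hspd1, Hspb1 and both HSP90 genes, and in oligodendrocytes both J20 libraries do so for both HSP90 genes.

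The genes whose level in excitatory neurons followed a member most closely over the 8 libraries, among 9682 genes at 10 CPM or more, were listed by Pearson's r of log2 CPM as a description, since the libraries share dates and depths. For Hspa8 they were Eml5 (r = 0.98), Dnm1l (0.97) and Slc30a7 (0.95). For Hspa5 they were Sycp3 (0.96), C230088H06Rik (0.95) and Proca1 (0.90). For Hsp90aa1 they were Myo18a (0.98), Mrpl47 (0.97) and Pkn2 (0.97). Among the members themselves Hsp90aa1 followed Hsph1 (0.84) and Hsp90ab1 (0.81), and Hspa5 followed Hspa8 less closely (0.34).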

How the data were processed

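Nuclei of the hippocampus of 8 mice were sequenced with 10x 3′ chemistry. The deposited values are UMI counts per gene and nucleus, made by the authors with Cell Ranger on mm10, and the processing notes also name Seurat 3.0 and R 3.6.2. How intronic reads were counted is not given in the sources used here. Nuclei with 200 to 7500 genes and under 5% mitochondrial UMIs were kept. A nucleus joined a type when 3 of its markers were detected and its marker score led the next by 0.1. No doublet caller was run. The lead and the gene maximum stood in for it, and 1104 nuclei lay within 0.02 of the lead. Counts were summed per library and type (at least 10 nuclei) and tested over all genes with edgeR 4.0.16 (TMM scaling, quasi-likelihood, R 4.3.3) and Benjamini-Hochberg adjustment. Calls required adjusted p-values under 0.05 together with log2 fold changes over 0.3. Type comparisons had library as a term. Alternatives used DESeq2 1.42.0, other scaling, filters and gates, and left out each library. Same-numbered WT and GKO libraries deviated together (r = 0.57, 0.18 and 0.22 over 19193 genes), and the numbers come from the sample titles. Differently numbered November libraries did so as well (r = 0.22 for WT 2 with GKO 3 and 0.30 for WT 3 with GKO 2). The August pair stood out, and the November pairs by number did not. No library duplicated another. Members and lists were chosen with earlier results of these data known. All other named genes were the 3 with the largest change among a list's calls, or the 3 most like a member. Each library was 1 mouse.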

Additional observations from a re-analysis of the deposited data

Results flagged for a closer look

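Date differences between the November and August libraries of WT and GKO mice were compared between oligodendrocytes and excitatory neurons by a direct test. They were larger or smaller in oligodendrocytes for 4 of the genes looked at. The share of all genes that passed this test is given above with Hspa5. The count of 4 was not set beside that share and does not set these genes apart from others. Hspa5 was the member among the 4, with a change 0.48 log2 units larger in oligodendrocytes (edgeR adjusted p = 0.012). As given above, this call of Hspa5 was lost with the stricter gate and when certain single libraries were left out. Calr and Canx, a pair of lectin chaperones of the ER, changed by 0.43 and 0.45 more in oligodendrocytes (edgeR adjusted p = 0.032 and 0.018). Errfi1, from the glucocorticoid-responsive list, changed by -1.19 relative to excitatory neurons (edgeR adjusted p = 0.0046).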

How the results depend on the processing

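No member passed between GKO and WT under any alternative, and the replicate block changed no member's call; over all genes the main count of 0 became 34 without the filter on low counts, 3 with DESeq2, 23 with the replicate block, 21 with the file date as a term and 0 to 3 with each library left out. The 4 member calls by date became 9 without the filter, 2 without a genotype term and 0 to 4 with each library left out; over all genes 6679 became 3965 with DESeq2 and 2021 (without WT 1) to 6319 with each library left out. The all-nuclei call became 0 with DESeq2 and 0 to 1. The 6 neighbour calls became 14 of 70 steps by an exact sign-flip permutation test (unadjusted p, no fold threshold, of which 2 were among the 6) and 10 with the WT and GKO libraries alone. The 1 call among excitatory gates became 2 by library size or with those 6 libraries and 7 with the stricter gate. The 1 interaction call became 0 with the stricter gate and 0 to 2. The causes were not tested, apart from fewer libraries or more genes by construction. Of the alternatives 73 counts stayed within 1.5 times and 27 did not. Refits of the 4 called date changes kept the call 32 times, lost it 23 times and reversed it 0 times. With each library left out the called log2 changes ranged from 0.43 to 0.68 for Hspa5, 1.13 to 1.39 for Dnajb1 and 0.44 to 0.58 for Hsp90ab1 in inhibitory neurons, and 0.46 to 0.62 for Hspa5 in microglia. Over all alternatives these calls were lost in 6 of 14, 7 of 13, 4 of 14 and 6 of 14 settings, with edgeR or DESeq2 adjusted p up to 0.195, 0.343, 0.263 and 0.290. Depth limits Hspa1a, Hspa1b and Hspb1, Dnajb1 in inhibitory neurons, and the mural and Cajal-Retzius gates.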
